A study of Mus musculus with 15 samples.

Results

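The 8 genes Mef2c, Pacsin2, Pde4d, Setd4, Mast3, Alkbh6, Tmem219 and Cep152 were described at every annotated transcription start site (TSS) in 15 lists of H3K4me3 islands (peaks) from mouse liver. They were chosen by presence: at least 1 region within 1 kb of a TSS was gained or lost against the standard diet in each of 4 other diets. A region counted as gained when at least 2 of 3 mice of the diet and no mouse of the standard diet had an island there, and as lost where SD mice had it and the diet did not. The same rule found 13 of 21755 protein-coding genes and 20 of 53843 annotated genes, so the 8 genes are 8 of those 13. Presence against the standard diet therefore chose the genes, and it is given below as a description with no test. The livers came from C57BL/6 female mice fed a standard diet (SD), the same diet in restricted amount (CR), a high-fat diet (HF), a diet with yellow corn (YD), or a diet with a near-isogenic purple corn rich in anthocyanins (RD), with 3 mice and 1 library per mouse on each diet. The study methods give 3 months of age at the start and 10 months of feeding, while the labels give an age of 12 months. No group carries an engineered allele, and the 4 comparisons share the same 3 SD mice, so they are not independent of each other.

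H3K4me3, histone H3 carrying 3 methyl groups on lysine 4, marks the nucleosomes around the start sites of active genes and of many CpG-rich promoters. Many mammalian genes have several promoters, each giving transcripts with their own first exon, and each promoter can carry the mark or lack it independently of the others. The 8 genes belong to no common pathway. Mef2c is a MADS-box transcription factor best known from muscle, endothelium and neurons, Pde4d degrades cyclic AMP and is known for long and short isoforms from separate promoters, and Cep152 is a scaffold that brings the kinase Plk4 to the centriole. Pacsin2 is an F-BAR protein that bends membranes, Setd4 is a SET-domain methyltransferase, Mast3 is a microtubule-associated serine/threonine kinase, Alkbh6 belongs to the AlkB family of dioxygenases, and Tmem219 is a membrane receptor for the binding protein Igfbp3.

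The lists held 7825 to 33752 islands, and the reads behind them, estimated from the scores, ranged from 5589269 to 15449854. An island within 1 kb of a TSS was found for 39.6% ± 5.98 of coding genes in SD, while CR had 43.4% ± 6.92, HF 51.2% ± 3.53, YD 22.8% ± 4.69 and RD 31.2% ± 3.46 (standard deviation, n = 3 each). YD, and less so RD, thus had fewer marked genes as a whole, and HF had more. The library names read ChIP in 10 libraries, including all SD and YD libraries, and PATChIP in 5 libraries of CR, HF and RD. What these forms stand for is not stated. As no SD library had the PATChIP form, name form and diet cannot be fully told apart for gains in CR, HF and RD. The part of the name form in the calls was not tested. Islands were present at 6 to 10 of 10 hepatocyte marker genes in every library. Of 8 sinusoidal endothelial markers, 0 to 6 had an island in an SD library, while CR libraries had 2 to 4, HF libraries 4 to 8, RD libraries 0 to 2 and YD libraries none. Of 8 Kupffer cell markers, 0 to 1 had an island in SD and CR and 0 to 4 in HF, with none in YD or RD. Of 8 stellate cell markers, 1 to 3 had an island in an SD library, while CR and RD libraries had 0 to 1, HF libraries 1 to 5 and YD libraries none. Cholangiocyte markers, 6 in all, had 0 to 3 with an island in any library, and lymphocyte markers, also 6, had 0 to 1. The endothelial, Kupffer and stellate lists thus had their highest counts in HF and none in YD, as the share of all genes was highest in HF and lowest in YD, and their part in the calls was not tested. In these bulk livers, fewer cells with the mark and less of the mark per cell cannot be told apart.

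The 8 genes had 59 promoters in all, where TSSs of a gene no more than 500 bp apart were joined into 1 promoter and promoters were numbered P1, P2 and so on from the 5′ end. An island lay within 1 kb of 30 of the 59 promoters in at least 1 list, and 29 had none in any list. No promoter had an island in all 15 lists, and the most widely marked, that of Cep152, had one in 9. Of the 30 marked promoters, 26 lay at a region that was gained or lost in at least 1 diet. Over all 30 marked promoters the islands were 400 to 5800 bp wide, with a median of 1600 bp, an island being counted at each promoter it reached. Their score, ranked within its own list so that libraries could be set side by side, lay between percentile 1.5 and percentile 86.9, with a median of 49.5. The islands were thus spread over most of the range of their lists, around its middle. Of the 37 calls of a region in a diet, 7 had an island in all 3 mice of the side that carried it and 30 in only 2. An SD region lost in several diets was counted once for each diet, so these calls are not independent.

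**Figure D1:**
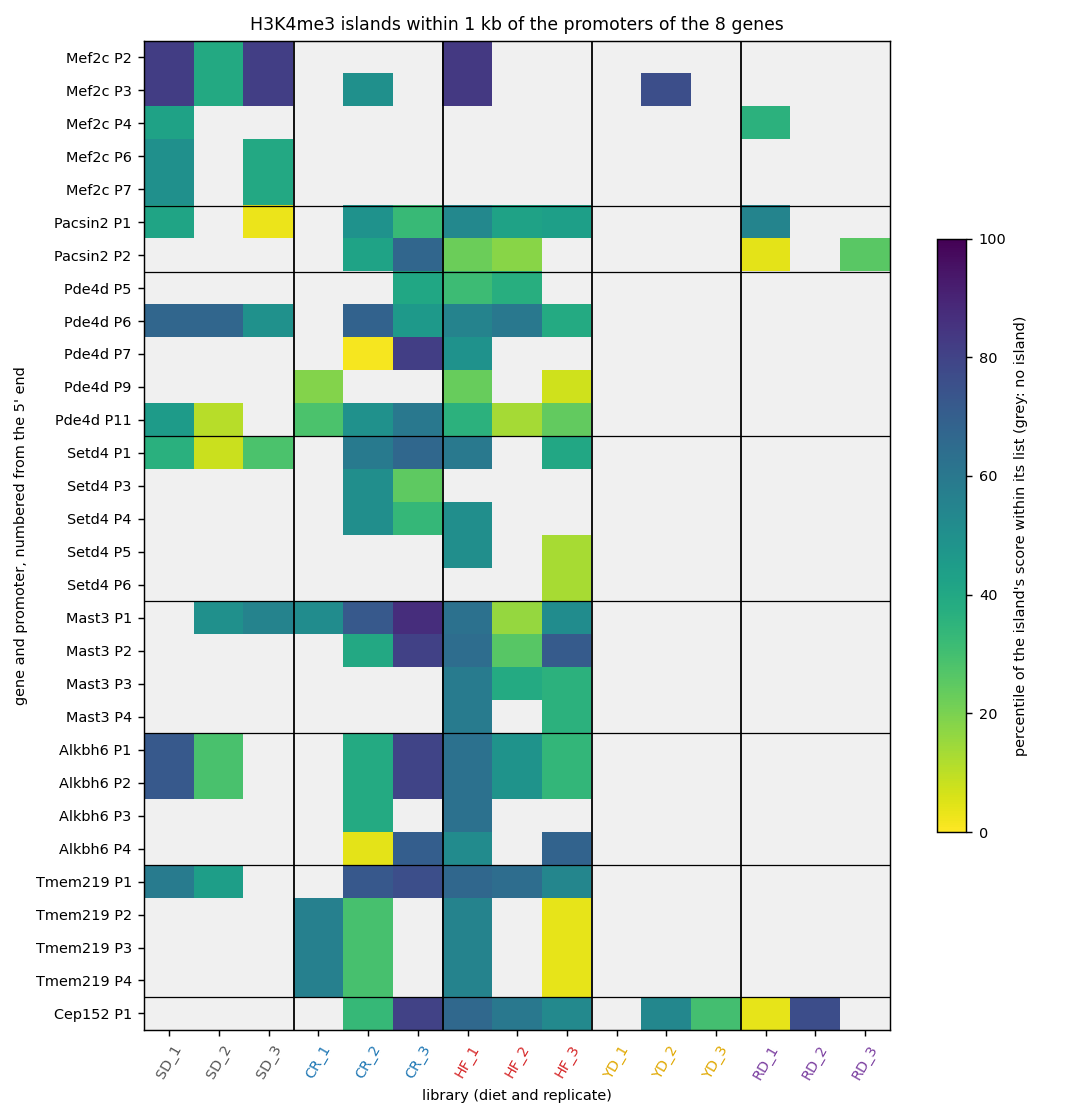
Presence and within-list score percentile (colour, 0 to 100) of the H3K4me3 island within 1 kb of each of the 30 marked promoters (vertical axis) in the 15 libraries (horizontal axis, 3 per diet). Grey stands for no island; in YD and RD, islands are seen only at Mef2c, Pacsin2 and Cep152.

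Read against all coding genes that could pass the rule, the shares gained or lost were 5.44% (CR), 10.6% (HF), 23.9% (YD) and 10.6% (RD), and 0.145% in all 4 diets. The direction differed between diets over the same genes, those that could pass the rule. CR had 4.65% gained and 0.8% lost, HF 10.5% gained and 0.159% lost, YD 0.0886% gained and 23.8% lost, and RD 0.738% gained and 9.89% lost. Of the listed genes, 7 of 8 were gained in both CR and HF (all but Mef2c), and 6 of 8 were lost in both YD and RD (all but Pacsin2 and Cep152). Of all 21755 coding genes, 344 were gained in both CR and HF and 673 were lost in both YD and RD. Since the rule used these contrasts, nothing is read from the counts of listed genes. Setd4, Mast3, Alkbh6, Tmem219 and Pde4d were gained in CR and HF and lost in YD and RD. In these 5 genes the lost and the gained regions lay at different promoters. Only Mef2c, lost, and Cep152, gained, changed at the same promoter and in the same direction in all 4 diets. With the 7825 highest-scoring islands of every list, with islands at or above the median score, or with all 3 mice required, 0 of the 8 genes were changed in all 4 diets. Without CR mouse 2 only Mef2c met the rule, and without CR mouse 3 only Mef2c and Tmem219.

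Cep152, on the minus strand of chromosome 2 (mm10), has a single annotated transcript and a single TSS at position 125625113. No SD mouse had an island at that TSS. In CR, mouse 1 had none and mice 2 and 3 had islands of 1200 and 1800 bp, at percentiles 33.0 and 80.4 of their lists. In HF all 3 mice had an island, of 1400, 1200 and 1600 bp, at percentiles 66.3, 59.9 and 52.8. These 5 islands each covered the TSS. The YD mice had no island, 600 bp and 400 bp, at percentiles 53.6 and 29.8, and the RD mice had 600 bp, 600 bp and no island, at percentiles 3.65 and 76.4. Every island of a corn diet was thus narrower than every island of CR and HF, while the percentiles of the 2 sets overlapped. In all 9 libraries the island overlapped the first exon, and its centre lay 112.5 to 612.5 bp downstream of the TSS.

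With a library without an island counted as 0, the Cep152 island was 367 ± 294 bp wide in YD and RD and 1200 ± 632 bp in CR and HF (standard deviation, n = 6 each), a difference of -833.3 bp. The score percentile was 27.2 ± 32.1 against 48.8 ± 28.6, a difference of -21.5. These are descriptions with no test, since presence in at least 2 mice of each diet chose the gene and fixed how many of the values could be 0. Over whole lists the median island width was 1200 to 2800 bp in the YD and RD libraries and 1600 to 2200 bp in the CR and HF libraries.

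The 300 bases before the TSS are printed to show the promoter that was marked in all 4 diets and in no SD mouse, at chr2:125625114-125625413 on the minus strand (mm10, GRCm38 reference), written 5′ to 3′ with each CpG in capitals.
Cep152 P1: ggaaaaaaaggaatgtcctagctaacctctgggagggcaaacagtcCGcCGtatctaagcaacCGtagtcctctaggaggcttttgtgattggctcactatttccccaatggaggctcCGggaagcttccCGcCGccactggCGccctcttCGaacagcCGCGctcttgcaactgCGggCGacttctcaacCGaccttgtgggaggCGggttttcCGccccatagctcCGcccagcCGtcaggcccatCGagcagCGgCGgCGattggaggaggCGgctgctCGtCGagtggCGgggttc
This stretch held 25 CpGs, with an observed/expected CpG ratio of 0.877, higher than that of 93.1% of 52259 promoters of coding genes, whose median was 5 CpGs and a ratio of 0.284. It held the letters GGGCGG, found on either strand in 24.3% of those promoters, and CCAAT, found in 35.5%.

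Mef2c, on the plus strand of chromosome 13, has 31 transcripts and 10 promoters. The region lost in all 4 diets, chr13:83573601-83576800, spanned P6 (TSSs from 83573607) and P7 (from 83575145), 69573 and 71111 bp downstream of the first TSS. SD mouse 1 had an island of 2400 bp there at percentile 49.8 and SD mouse 3 had 2800 bp at percentile 39.5, while SD mouse 2 and all 12 mice of the other diets had none. The call in each diet thus rested on the same 2 SD islands, 1 of which covered a TSS of P6. The nearest islands to P6 in the other diets were 17407 bp (CR), 45207 bp (HF), 23776 bp (YD) and 23407 bp (RD) away.

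Mef2c carried its main islands elsewhere. At P3, whose first TSS is at 83524291, all 3 SD mice had an island, of 3000, 2400 and 3600 bp, at percentiles 81.8, 39.2 and 81.6. There, 1 CR mouse had 1800 bp (percentile 49.8), 1 HF mouse 5800 bp (percentile 83.3) and 1 YD mouse 2800 bp (percentile 75.9), and no RD mouse had an island within 1 kb. P2, 1 promoter upstream, was marked by the same SD and HF islands. At P4, SD mouse 1 and 1 RD mouse had an island, of 800 and 2000 bp. P1, P5, P8, P9 and P10 had none in any list. P2 and P3 were not called lost in any diet under the rule, since the region of SD was touched by islands of other diets. The lost promoters P6 and P7 alone carried the call. P6 is shown as the first of them, at chr13:83573307-83573606 on the plus strand (mm10), with CpGs in capitals.
Mef2c P6: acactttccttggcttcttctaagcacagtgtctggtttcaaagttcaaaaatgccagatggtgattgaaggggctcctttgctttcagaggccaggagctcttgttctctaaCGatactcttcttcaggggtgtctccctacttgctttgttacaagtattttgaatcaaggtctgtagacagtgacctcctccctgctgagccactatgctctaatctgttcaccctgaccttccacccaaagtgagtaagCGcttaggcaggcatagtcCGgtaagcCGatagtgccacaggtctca
It held 4 CpGs (ratio 0.233), close to the middle of all coding promoters. This stretch lay mostly outside the lost region, which began at 83573601, so its ratio does not describe that region. The islands of SD mice 1 and 3 each covered a TSS of P7. The bases described for P7 lay within the lost region and held 9 CpGs (ratio 0.792, higher than 89.1% of coding promoters).

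**Figure D2:**
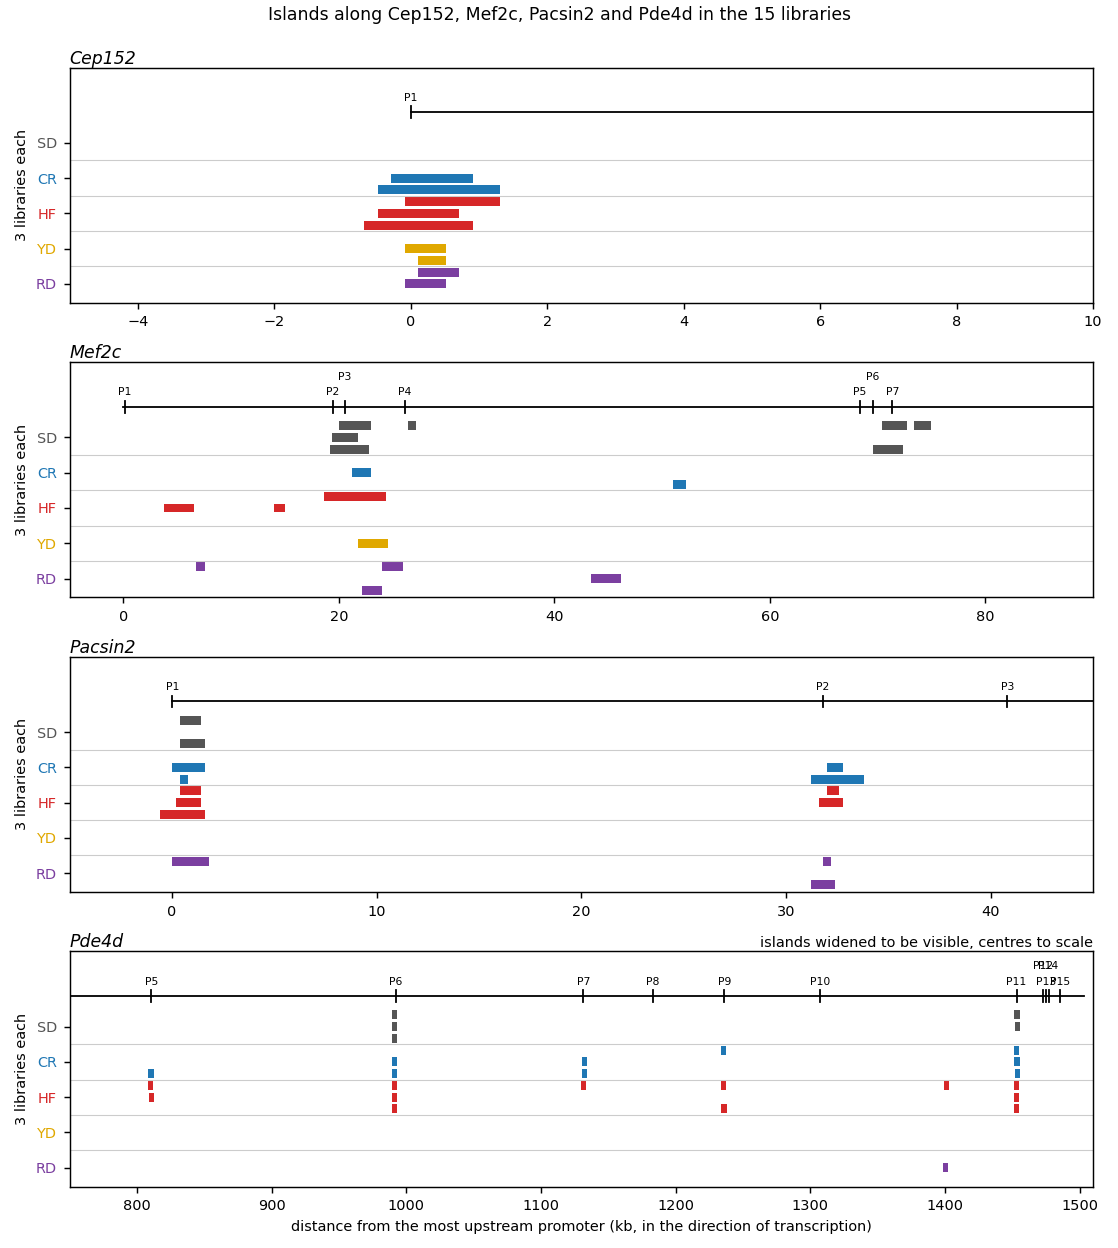
Islands (bars, 1 line per library, 3 per diet) along Cep152, Mef2c, Pacsin2 and Pde4d, with promoters P1 onward marked on the gene line. The horizontal axis is the distance from the most upstream promoter in kb, and Pde4d islands are widened to be visible. At Cep152 the YD and RD bars, 400 to 600 bp, are shorter than the CR and HF bars, 1200 to 1800 bp.

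Setd4, on the minus strand of chromosome 16, has 10 promoters. At P1 (TSSs from 93603791 to 93604063) the 3 SD mice had islands of 800, 800 and 1000 bp at percentiles 36.5, 7.86 and 28.5. CR mice 2 and 3 had 1800 and 1600 bp (percentiles 59.4 and 66.5), and HF mice 1 and 3 had 1600 bp each (percentiles 59.5 and 39.9). No YD or RD mouse had an island at P1 or anywhere else on the gene, and the nearest island in either diet was 3738 bp from P1. P1 was therefore marked in 7 libraries of SD, CR and HF and in none of the 6 corn libraries, and every SD island there was narrower than every CR and HF island.

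The gains of Setd4 lay inside the gene, where no SD mouse had an island. In CR the region chr16:93593201-93597400 took in P3 and P4, 6647 and 10573 bp downstream, with an island of 3600 bp in mouse 2 (percentile 50.7) and islands of 800 and 1000 bp within reach of P3 and P4 in mouse 3 (percentiles 24.9 and 33.2). In HF the region chr16:93589601-93592800 lay around P5, with 2600 bp in mouse 1 (percentile 50.4) and 1200 bp in mouse 3 (percentile 13.2). The HF region also lay within 1 kb of P6 and of P4, which was 690 bp from the island of mouse 1. P4 was thus called gained in both CR and HF. P3 to P6 start processed, intron-retaining or nonsense-mediated decay transcripts rather than coding ones, and the antisense gene AC160993.1 starts 312 bp from P5. When TSSs of protein-coding transcripts alone were counted, Setd4 was no longer changed in all 4 diets.

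Mast3, on the minus strand of chromosome 8, showed the same division between its first promoter and the next ones. At P1 (TSSs from 70804982 to 70805054) SD mice 2 and 3 had 1400 and 1000 bp (percentiles 49.9 and 55.2), and all CR and HF mice had an island of 800 to 2600 bp, at percentiles 15.7 to 86.9. All 6 corn libraries lacked it. P2, 8066 bp downstream, was marked in no SD mouse, in CR mice 2 and 3 with 1800 bp each (percentiles 39.6 and 80.7) and in all HF mice with 2400, 1200 and 3600 bp (percentiles 64.1, 25.9 and 71.3). In CR the same 2 mice also had an island in a second gained region, chr8:70797601-70800200, upstream of P2. P3 and P4, 12617 and 14276 bp downstream, were marked only in HF, in 3 and 2 mice. P2, P3 and P4 start coding transcripts. The CpG ratios of P1, P2 and P3 were 0.832, 0.864 and 0.832, higher than in 91.0% to 92.6% of coding promoters, while that of P4 was 0.206, higher than in 36.6%. The microRNA gene Mir7240, on the opposite strand, starts 1147 bp from P2, within 1 kb of the gained regions.

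Alkbh6, on the plus strand of chromosome 7, is the shortest of the 8 genes. Its P1 (TSSs from 30308717) had islands of 1000 and 1600 bp in SD mice 1 and 2 (percentiles 71.9 and 28.6), of 1600 and 1200 bp in CR mice 2 and 3 (39 and 79.6), and of 2000, 1600 and 2400 bp in the HF mice (62.6, 48.8 and 33.7). The corn libraries had none there. P4, 3958 bp downstream, had islands of 1000 bp in CR mice 2 and 3 (percentiles 3.91 and 70.2) and of 1400 and 4000 bp in HF mice 1 and 3 (51.7 and 68.1), with none in SD. The neighbouring gene Syne4, which encodes a nesprin of the nuclear envelope, has its first TSS at 30314807, 2132 bp beyond P4 on the same strand. The gained CR region ended at 30314400, within 1 kb of that TSS, and of the 4 islands only that of HF mouse 3, which ended at 30316200, reached it. P2 and P4 start no coding transcript, and with coding transcripts alone Alkbh6 was not changed in all 4 diets.

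Tmem219, on the minus strand of chromosome 7, had the widest spacing of these 4 genes. At P1 (TSSs from 126922900) SD mice 1 and 2 had 1600 and 800 bp (percentiles 58.3 and 44.0), CR mice 2 and 3 2800 and 1400 bp (72.6 and 76), and the HF mice 2000, 1800 and 2000 bp (66.6, 64.3 and 54.2). No corn library had an island there, the nearest being 37100 bp away in RD. P2, P3 and P4, 24636 to 26041 bp downstream, shared 1 island per mouse. It was 2200 and 1600 bp wide in CR mice 1 and 2 (percentiles 56.3 and 29.1) and 1600 and 1200 bp in HF mice 1 and 3 (55.5 and 3.71). No SD, YD or RD mouse had it. P2 is shown as the first of the gained promoters, at chr7:126898282-126898581 on the minus strand of mm10, with CpGs in capitals.
Tmem219 P2: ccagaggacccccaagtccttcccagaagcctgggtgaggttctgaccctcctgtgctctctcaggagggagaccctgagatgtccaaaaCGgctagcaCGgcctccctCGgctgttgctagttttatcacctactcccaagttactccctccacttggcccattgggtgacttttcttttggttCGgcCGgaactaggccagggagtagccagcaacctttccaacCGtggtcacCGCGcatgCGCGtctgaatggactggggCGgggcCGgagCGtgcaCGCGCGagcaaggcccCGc
It held 17 CpGs (ratio 0.605, higher than 78.8% of coding promoters) and the letters GGGCGG, and it was marked in 4 libraries.

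**Figure D3:**
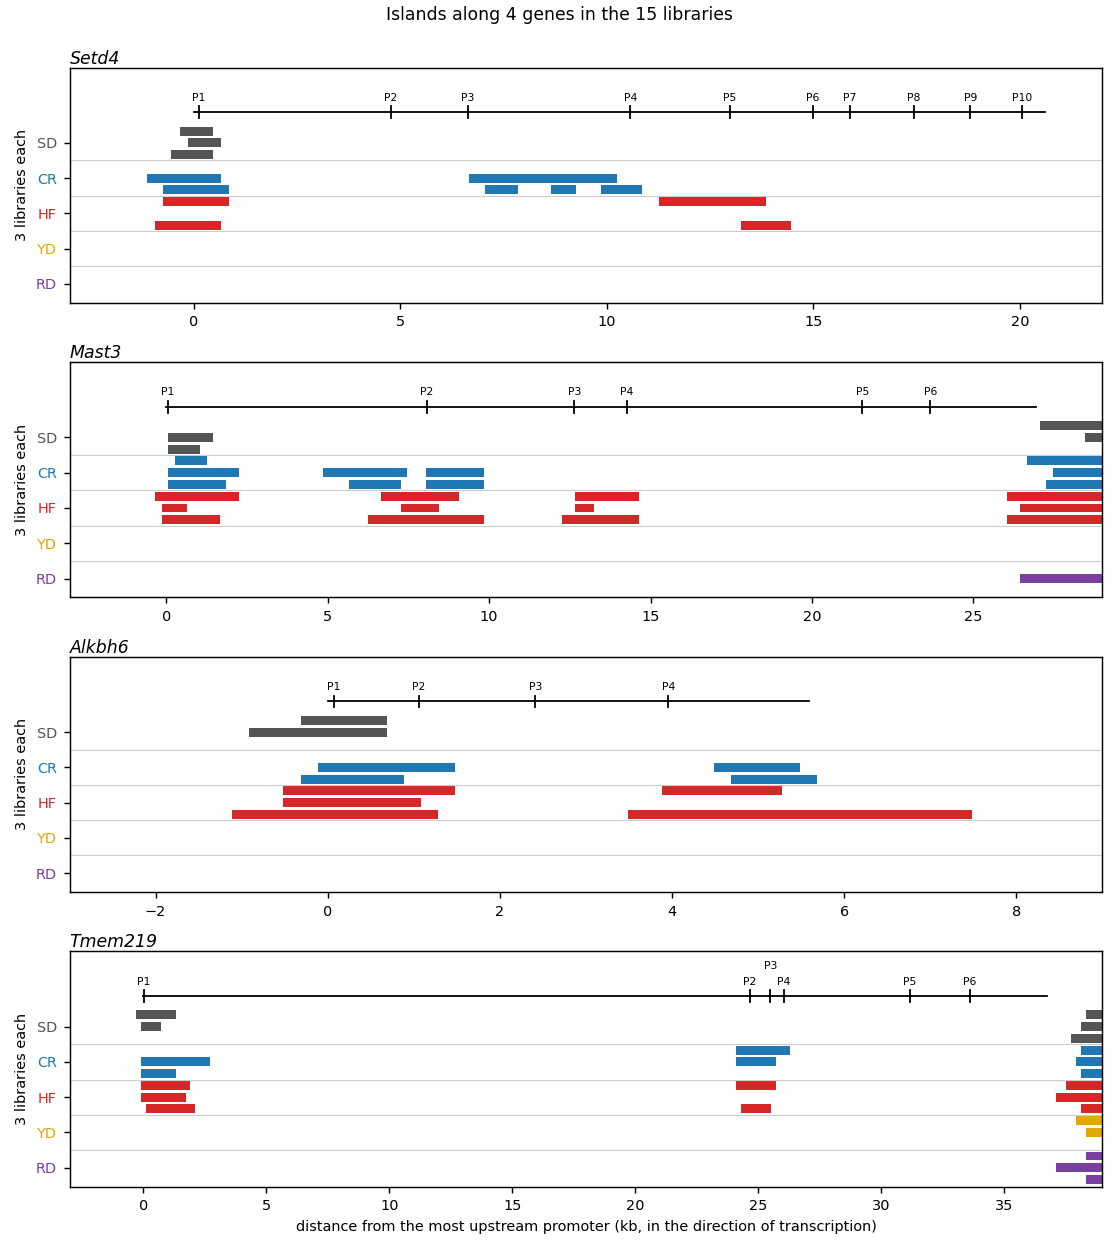
Islands (bars, 1 line per library, 3 per diet) along Setd4, Mast3, Alkbh6 and Tmem219, with distance from the most upstream promoter in kb on the horizontal axis and promoters marked on the gene line. Within 1 kb of a promoter, SD bars lie only at the first promoters (P1, and P2 of Alkbh6), CR and HF bars also at later ones, and YD and RD bars at none; bars near the right edge of Mast3 and Tmem219 lie around the 3′ end and beyond.

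Pde4d, on the plus strand of chromosome 13, spans 15 promoters, a number that 0.0735% of coding genes reach. P6 (TSS at 109442183) had islands in all 3 SD mice, of 1600, 1000 and 1400 bp (percentiles 67.1, 67.1 and 49.3), in 2 CR mice of 1800 and 1600 bp (68.5 and 46.1) and in all 3 HF mice of 1600, 1000 and 1600 bp (55.3, 60.1 and 38.7). P11 (TSSs from 109903102) had 1600 and 1400 bp in 2 SD mice (percentiles 45.1 and 10.7), 1400, 2000 and 1400 bp in CR (28.5, 49.6 and 59.9) and 1400, 1000 and 2600 bp in HF (35.7, 13.6 and 23.9). Both were lost in YD and RD, where no library had an island within 1 kb. The nearest islands to P6 in the corn diets lay 377583 bp away in YD and 297983 bp in RD. Over the whole gene and 1 kb around it, the YD mice had 0, 0 and 1 islands and the RD mice 1, 4 and 1, against 1 to 3 in SD, 3 to 8 in CR and 3 to 7 in HF.

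The promoters of Pde4d called gained were not the same in CR and HF, a difference that was not tested. P7 (TSS at 109581405) was marked in 2 CR mice, with 600 and 1400 bp (percentiles 1.5 and 81.3), and in 1 HF mouse. P5 and P9 (TSSs at 109260654 and from 109686156) were each marked in 2 HF mice and 1 CR mouse, with 400 to 1200 bp at P5 and 800 to 1000 bp at P9. Each of these 3 promoters therefore stood at 3 of 15 libraries, and a gain in 1 diet and not in the other rested on 1 mouse. Just upstream of their TSSs, P6 had 2 CpGs (ratio 0.163) and P11 had 39 (ratio 1.07, higher than 98.7% of coding promoters). The stretch described was thus poor in CpGs at 1 lost promoter of this gene and rich at the other. At P6 that stretch began at 109441883 and ran to the TSS, while the lost region ended at 109442000, short of the TSS. Of the islands at P6, only that of HF mouse 1 covered the TSS, so the P6 ratio describes sequence mostly outside the lost region. The microRNA gene Mir1904 starts 703 bp from P11. The other 10 promoters had no island in any list.

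Pacsin2, on the minus strand of chromosome 15, was the 1 gene that was gained in RD and lost in YD. P1 (TSSs from 83464552 to 83464606) had islands of 1000 and 1200 bp in SD mice 1 and 3 (percentiles 41.4 and 2.79), of 1600 and 400 bp in 2 CR mice (49.1 and 32.6) and of 1000, 1200 and 2200 bp in the HF mice (53.2, 42.4 and 43.7). In RD, mouse 1 had 1800 bp (percentile 54.7) and the others none, and no YD mouse had an island, so P1 was called lost in YD alone. P2, 31782 bp downstream, had no island in SD or YD. It had 800 and 2600 bp in CR (41.9 and 67.1), 600 and 1200 bp in HF (22.5 and 17.9), and 400 and 1200 bp in RD mice 1 and 3 (4.26 and 25.7). P2 was thus gained in 3 diets by 2 mice each, with 5 of the 6 islands in the lower part of their lists. P1 and P2 are printed together, since 1 was lost and the other gained, at chr15:83464607-83464906 and chr15:83432825-83433124, both on the minus strand of mm10, with CpGs in capitals.
Pacsin2 P1: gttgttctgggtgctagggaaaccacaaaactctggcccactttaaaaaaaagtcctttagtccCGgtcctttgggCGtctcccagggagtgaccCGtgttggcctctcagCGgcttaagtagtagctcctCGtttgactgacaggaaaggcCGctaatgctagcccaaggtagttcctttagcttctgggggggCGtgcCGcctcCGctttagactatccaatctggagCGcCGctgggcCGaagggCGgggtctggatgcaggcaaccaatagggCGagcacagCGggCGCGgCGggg
Pacsin2 P2: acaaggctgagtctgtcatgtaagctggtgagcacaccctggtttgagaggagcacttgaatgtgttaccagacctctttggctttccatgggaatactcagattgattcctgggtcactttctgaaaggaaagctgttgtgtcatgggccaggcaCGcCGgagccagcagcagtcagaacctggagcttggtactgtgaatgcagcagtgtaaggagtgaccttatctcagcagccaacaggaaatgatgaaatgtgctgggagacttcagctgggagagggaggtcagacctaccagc
The first promoter had 18 CpGs (ratio 0.696), and held both GGGCGG and the letters CCAAT, while the gained P2 had 2 CpGs (ratio 0.103) and held neither of them.

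**Figure D4:**
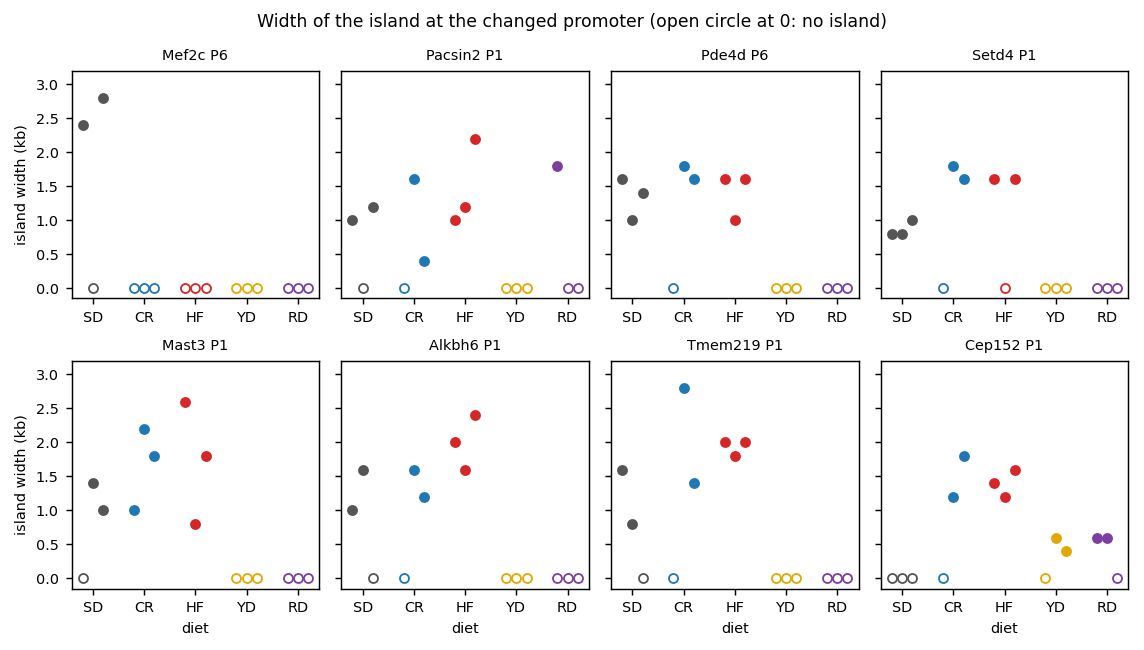
Width in kb (vertical axis) of the island at 1 changed promoter of each gene, that with the most libraries, for each mouse by diet (horizontal axis). Each filled point is 1 library with an island and each open circle at 0 is 1 library without. At Cep152 the YD and RD points, 0.4 to 0.6 kb, lie below the CR and HF points, and at the other genes the YD points are at 0.

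Over the 59 promoters, base composition did not follow the calls in a simple order. The median observed/expected CpG ratio was 0.477 at the 10 lost promoters, 0.384 at the 16 gained ones, 0.396 at the 4 marked but uncalled ones and 0.265 at the 29 without an island. Promoters of 1 gene share a sequence context and some share an island, so these medians are a description. The bases described lie upstream of the TSS and need not lie in the called region. At Pde4d P6 and Mef2c P6 they lay mostly outside the lost region, and at Pacsin2 P1, Mast3 P1 and Alkbh6 P2 wholly outside it. Among the gained promoters, they lay wholly outside the gained region at Pde4d P7, Setd4 P3 and Setd4 P6. The medians of lost and gained promoters thus describe in part sequence beyond the called regions. Of 12 entries for the 8 genes in the RefSeq promoter table, 12 were identical to the GRCm38 sequence.

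**Figure D5:**
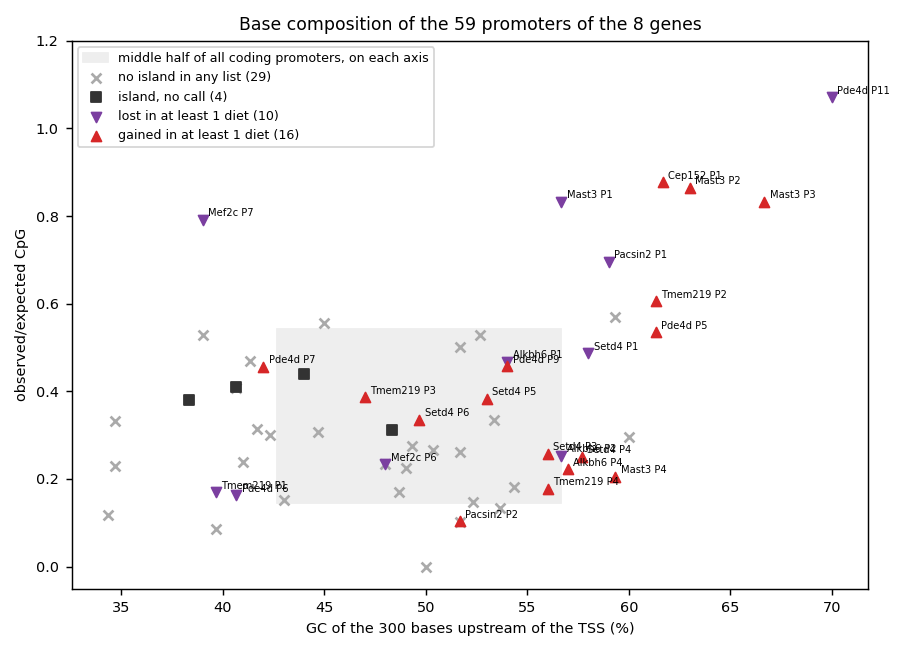
GC content in percent (horizontal axis) and observed/expected CpG ratio (vertical axis) of the 300 bases upstream of each of the 59 promoters, by call, with called promoters named. The grey field holds the middle range, from the lower to the upper quartile, of all coding promoters on each axis. Lost and gained promoters are spread from CpG ratios near 0.1 to above 0.8.

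The genes of the list had many promoters. A coding gene had a median of 2, while the listed genes had 10 (Mef2c and Setd4), 7 (Pacsin2), 15 (Pde4d), 6 (Mast3 and Tmem219), 4 (Alkbh6) and 1 (Cep152). Over all coding genes, the share changed in all 4 diets was 0.0346% for genes with 1 promoter, 0.0226% with 2 to 3, 0.118% with 4 to 6 and 0.467% with 7 or more. These shares rest on 3, 2, 4 and 4 genes, and the listed genes are among them. The 4 genes with 7 or more promoters were Mef2c, Pacsin2, Pde4d and Setd4 themselves. The shares in all 4 diets are therefore no independent background for the list. The share called in a given diet rose over these classes, from 1.87% to 6.53% for CR, 3.88% to 11.7% for HF, 6.52% to 19.1% for YD and 3.19% to 10.5% for RD. A gene with more promoters had more places at which a region could be called, and these shares were not corrected for that.

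The other 5 coding genes that the rule found were the olfactory and vomeronasal receptor genes Olfr25, Olfr832 and Vmn2r121 and the amino acid transporter gene Slc38a4, all lost in all 4 diets, and the mitochondrial carrier gene Slc25a38, gained in all 4. Among genes just outside the rule, 95 coding genes were called in 3 of 4 diets, and 30 of them missed the fourth diet by 1 mouse. Lars2, for example, had no SD mouse and 1 YD mouse with the region. The listed genes lay just inside, since each of them had at least 1 diet called with the minimum of 2 mice.

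By presence over the 15 libraries, the changed promoter with the most islands was set beside the promoters of all other coding genes. For Alkbh6 P1 and Tmem219 P1, which had the same presence as each other, 131 other coding genes had a promoter with an identical presence, the nearest in score percentile being Nfyb, Fxr2 and Rin3 for Alkbh6 and Frk, Pabpc4 and Suox for Tmem219. There were 65 for Pde4d P6 (nearest Cdk2ap1, Rdh14 and Sptbn4), 11 for Mast3 P1 (Spry1, Tbc1d8b and Acox3), 9 for Pacsin2 P1 (Laptm4b, Zfp639 and Nostrin), 3 for Setd4 P1 (Ccnf, Ccdc141 and Cmah) and 2 for Mef2c P6 (Olfr832 and Olfr25). Cep152 had none, and the closest was Lars2, which differed in 1 library. These counts, among 21755 coding genes, ask for the same presence in every single library. Presence also chose the genes, so the counts are a description with no test.

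Relatives and partners of the 8 genes, 34 genes in all, had an island in 21 to 26 cases per SD library, against 21 to 30 for CR, 27 to 31 for HF, 12 to 19 for YD and 18 to 23 for RD. In CR 2 of the 34 were gained and none lost, in HF 3 were gained, in YD 5 were lost and in RD 2 were lost. Of all 21755 coding genes, 2.19% were gained in CR, 5.46% were gained in HF, 9.87% were lost in YD and 4.19% were lost in RD. Among the kinases related to Mast3, Mast2 had an island in no SD mouse, 2 CR mice, 3 HF mice, no YD mouse and 1 RD mouse and was gained in CR and HF, and Mast4 was gained in HF. Among the centriole genes, Cep135, a structural protein of the centriole, was gained in CR and HF (0, 3, 3, 0 and 1 mice in SD, CR, HF, YD and RD). Plk4, the kinase that starts centriole duplication, and Cenpj, which elongates centrioles, were lost in YD, and Cep192, the other scaffold of Plk4, was lost in RD. No listed centriole partner followed the presence of Cep152. Pde4c was lost in YD and RD, as Pde4d was at P6 and P11, with 3, 2, 3, 0 and 0 mice. Mef2d was lost in YD at 1 region, while all 15 libraries had an island at some promoter of the gene, and the AlkB homolog Alkbh8 was lost in YD. Igfbp3, the ligand of Tmem219, and Pacsin1 and Mast1 had no island in any list.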

How the data were processed

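H3K4me3 was profiled by PAT-ChIP, chromatin immunoprecipitation from 4 serial sections of formalin-fixed, paraffin-embedded liver, in 15 mice, 3 on each of 5 diets, with groups taken from the sample labels. Per the study methods, single reads of 50 bp were aligned to mm10 with bwa, samtools then removed duplicates, alignments with a MAPQ below 1 and those off chromosomes 1 to 19 and X, and islands were called in each library with SICER2 (window 200 bp, gap 400 bp, FDR under 0.05), with no pooling. The labels name BWA, SAMtools and SICER without versions.

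The deposited files give each island by its coordinates and a score. The score, as the authors deposited it, sums a negative log (natural) Poisson probability of the reads in every enriched window. Scores of different libraries have no common scale, so each was turned into a percentile within its list. A percentile depends on what else its list holds. Per the file values, starts are counted from 0, and coordinates are given here from 1. Reads behind a list were estimated from the score steps of single-window islands with an effective genome fraction of 0.74. YD mouse 1, with the highest estimate, and HF mouse 3 had only 2 such steps, so no further step could check their values. Read counts per island were not analysed here. Errors are therefore the spread between mice, without a counting term.

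The 8 genes and all gene and marker lists were chosen with earlier results of these data known. Genes named beyond the 8 are those with a TSS within 1 kb of a called region, the 3 coding genes closest in presence, members of the lists, and the other genes the rule found. TSSs came from GENCODE M21 (139486 transcripts on chromosomes 1 to 19 and X). For each comparison, overlapping or touching islands of the SD mice and of the mice of that diet were joined into common regions. The rule was then applied to these regions. Promoters were described by the 300 bases upstream of the outermost TSS in GRCm38. The sequence of 1 promoter is not reported here. Widths and percentiles at Cep152 are given as means with no test. Calculations used Python 3.11.15, numpy 2.4.6, scipy 1.17.1 and matplotlib 3.10.9. They were tested on simulated data, where 200 of 200 planted changes and 0 of 3800 unchanged promoters were called. There, each planted change was in every list of 1 side and in none of the other, and each unchanged promoter was in every list. The simulation thus checked the code, and it gives no rate of false calls for the real lists. Alternatives were other TSS distances, list lengths, score, width and coverage thresholds, the 3-mice rule, and the omission of each mouse.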

Additional observations from a re-analysis of the deposited data

Results flagged for a closer look

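The width of the Cep152 island in the 6 libraries of CR and HF was set apart by a single library. CR mouse 1 had no island (0 bp), and the others had 1200 to 1800 bp. The gap between CR mouse 1 and the nearest other library was 0.667 of the whole range, above Dixon's 95% critical value for 6 samples. Since the 0 stands for a missing island and presence chose the gene, no chance rate can be read from this gap.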

How the results depend on the processing

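The count of listed genes changed in all 4 diets was 8. It was 5 when the TSS had to lie inside the region (without Pacsin2, Pde4d and Alkbh6), 4 with at least 50% of the region covered (Mef2c, Mast3, Tmem219 and Cep152), 0 with the 7825 highest-scoring islands of every list, 0 with islands at or above the median score and 0 when all 3 mice had to carry the region. It stayed at 8 with TSSs within 3 kb, islands joined within 400 bp and a window around each TSS, and was 6 with islands of at least 600 bp or, chosen after seeing the data, with coding transcripts alone. The count of coding genes, 13, was 25, 5 and 0 with the highest-scoring islands, the median score and all 3 mice, 46 with coverage, 24 with the window and 20 over all annotated genes. The 25 genes held none of the listed 8. Losses in both YD and RD, 6 listed genes, became 2 (Pde4d and Mast3), 1 and 2 with the highest-scoring islands, the median score and all 3 mice. Gains in both CR and HF, 7 listed genes, became 0, 0 and 0 under the same 3 alternatives and 3 with coverage. Leaving out each mouse in turn gave 1 to 8 listed genes in all 4 diets, 5 to 20 coding genes, 3 to 7 losses and 0 to 7 gains. Without CR mouse 2 only Mef2c remained (1 gene), without CR mouse 3 Mef2c and Tmem219 (2), without HF mouse 1 3, without SD mouse 1 4, and without SD mouse 2, SD mouse 3 or HF mouse 3 it was 5. Mef2c met the rule in 13 of 15 such omissions and Pacsin2 in 8, with the other genes between. At Cep152, the difference in width of -833.3 bp was -533.3 bp with the highest-scoring islands and -2.67 on the log2(width + 1) scale, and ranged from -1073.3 to -713.3 bp over the omissions. The difference in percentile, -21.5, was 1.16 with the highest-scoring islands and -31.3 to -15.2 over the omissions. The exact permutation tests planned for these differences, with and without the replicate number as a block, are not reported, since presence chose the gene. A block leaves the differences themselves at -833.3 bp and -21.5. The numbers name different mice, and their deviations did not go together: the mean correlation was 0.00402 over 30 same-number pairs, from -0.0629 to 0.0767, and 7 of 15 libraries matched their own number best, so this pairing is only a number. The causes of these changes were not tested beyond what fewer islands or fewer mice give by construction. The tests planned at promoters with an island in all 15 lists were not run, since 0 promoters of the 8 genes met that condition. With 2 of 3 mice as the minimum, and no read count per island, a promoter without an island was not detected by the authors' threshold at this depth, which does not show that the mark was absent.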
